A study of Mus musculus with 6 samples.

Results

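Mice were treated by acupuncture in which the needles carry a weak current of low frequency (Acu/LFES), and the small RNAs of their serum exosomes were sequenced. Described here are the miR-99/100 and miR-125 miRNAs, which are transcribed together with let-7 miRNAs. The members were the 7 rows of the count table named mmu-miR-99a-5p, mmu-miR-99b-5p, mmu-miR-100-5p, mmu-miR-125a-5p, mmu-miR-125b-5p, mmu-miR-99b-3p and mmu-miR-125a-3p (written without the prefix from here on), out of 1982 rows in all. They were taken by name and not by their values. All 6 mice were male C57BL/6 mice aged 3 months. The 3 Acu/LFES mice (numbered 4, 5 and 6) had a single hindlimb treatment of 30 min, and the 3 sham mice (numbered 1, 2 and 3) had needles placed close to the same points and wired to the device without current. Exosomes, small vesicles that cells release, were pelleted from the serum of each mouse, and each mouse gave 1 small RNA library. A serum pellet holds vesicles of many tissues, so fewer vesicles from a tissue and less miRNA in each vesicle cannot be told apart.

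The libraries held between 391708 and 1504137 counts. Acu/LFES mouse 6 stood apart in its make-up. The rows miR-486a-5p and miR-486b-5p, listed with identical counts, took 29.2% of the counts of mouse 6. In the other 5 mice they took between 61.7% and 74.0%. Levels are given as CPM, the usual scale of counts relative to library size, with that size multiplied by edgeR's TMM factor, a trimmed mean of the ratios between libraries. A miRNA with 3 counts stood between 1.80 CPM (Acu/LFES mouse 4) and 9.93 CPM (sham mouse 3). Every log2 fold change is that of Acu/LFES relative to sham.

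The miR-100, let-7 and miR-125 genes form one of the oldest miRNA clusters of animals, and miR-125 is the mammalian counterpart of the worm miRNA lin-4. A cluster is copied into a single long transcript, from which each hairpin is cut out and trimmed into a 5p and a 3p strand. Usually 1 strand is kept and the other is degraded. The RNA-binding protein LIN28 holds back the trimming of let-7 hairpins, so members of a cluster need not reach the same level. miR-99 and miR-100 are known to repress mTOR, the kinase at the centre of growth signalling, and miR-125b is known to repress Igf2 in muscle precursor cells.

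The mouse has 3 such clusters. In the GRCm38.p6 build, the mature part of Mir99a lies on chromosome 16 from 77598940 to 77598997, 674 bases before that of Mirlet7c-1, and Mir125b-2 follows from 77646279 to 77646339. These are on the plus strand, inside introns of Mir99ahg, a noncoding host gene. Mir100 lies on chromosome 9 from 41531437 to 41531492, 5239 bases before Mirlet7a-2, with Mir125b-1 from 41581940 to 41582001. They are on the plus strand in introns of 3110039I08Rik and Gm49317, both noncoding, and Mir125b-1 also overlaps an exon of Gm28119. The tightest cluster is on chromosome 17, in an intron of Spaca6, where Mir99b lies from 17830194 to 17830253, Mirlet7e begins 112 bases later, and Mir125a lies from 17830817 to 17830876. Both Mir125b genes give the same 5p strand, so its counts cannot be assigned to a chromosome. let-7c-5p and let-7a-5p are also made outside these clusters, from Mirlet7c-2 on chromosome 15 and Mirlet7a-1 on chromosome 13. In each case the row of the 5p strand had more counts over all mice than that of the 3p strand. For miR-125b, let-7c and let-7a the 5p row can hold counts of other hairpins, so there it does not speak for a single hairpin.

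All 7 members had a mature sequence in RefSeq (GRCm38.p6). The 5p members are shown because they fall into 2 families by seed, the bases 2 to 8 that pair with target mRNAs, which are in capitals.
miR-99a-5p: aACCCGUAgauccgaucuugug
miR-100-5p: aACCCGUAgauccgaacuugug
miR-99b-5p: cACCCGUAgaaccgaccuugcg
miR-125a-5p: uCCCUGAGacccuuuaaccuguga
miR-125b-5p: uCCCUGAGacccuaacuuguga
Counted from 1 at the 5′ end, miR-99a-5p and miR-100-5p differ only by U16A, so a counter that tolerates 1 mismatch could give a read to either. miR-99a-5p and miR-99b-5p differ by A1C, U11A, U16C and U21C. miR-125a-5p and miR-125b-5p are identical over their first 13 bases and are 24 and 22 bases long. Of 1679 mature mouse miRNAs, 3 have the seed ACCCGUA and 5 the seed CCCUGAG. The 3p members have other seeds, and miR-99b-3p is set beside miR-99a-3p, which shares its first 9 bases.
miR-99b-3p: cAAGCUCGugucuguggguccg
miR-99a-3p: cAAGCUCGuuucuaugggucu
miR-125a-3p: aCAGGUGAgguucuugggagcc
The hairpin of Mir125a, with both mature strands in capitals, shows how they face each other across the loop.
Mir125a: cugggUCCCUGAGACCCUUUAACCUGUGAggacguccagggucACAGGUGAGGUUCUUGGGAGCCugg

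These miRNAs were a small part of the exosome miRNA. Together the 7 members took 0.129%, 0.0633% and 0.0661% of all counts in sham mice 1, 2 and 3 and 0.0842%, 0.0795% and 0.180% in Acu/LFES mice 4, 5 and 6. The widest 95% Wilson interval was that of mouse 6, from 0.169% to 0.192%, and it covers counting error only. The difference in share was within the spread of the mice (two-sided exact permutation test, p = 0.5), and the mice with the highest share in either group were those with the lowest share of miR-486 counts. Without miR-486a-5p and miR-486b-5p in the total, the shares ran from 0.221% in mouse 4 to 0.338% in mouse 1 and the groups again overlapped (exact permutation test, p = 0.8).

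miR-125a-5p was the most counted member in every mouse and made up between 54.8% (mouse 4) and 68.2% (mouse 1) of the members' counts. The mature strands are of nearly equal length, so CPM was not divided by length, although strands can differ in how well adapters join to them. On the mean log2 CPM over the 6 mice, miR-125a-5p stood at 9.19, above miR-125b-5p at 7.46, with a mean difference of 1.73 ± 0.44 (SD, n = 6) and more counts in 6 of 6 mice (two-sided exact sign-flip permutation test, p = 0.031, the smallest that 6 mice allow; adjusted over the 6 neighbouring pairs, p = 0.0938). miR-125b-5p and miR-99b-5p, at a mean log2 CPM of 6.63, did not differ beyond their spread, as miR-125b-5p had more counts in 4 of 6 mice and as many in sham mouse 3 (exact permutation test, p = 0.125). miR-99b-5p had more counts than the next member, miR-99b-3p at a mean log2 CPM of 3.78, in 6 of 6 mice (exact permutation test, p = 0.031, adjusted p = 0.0938). The last 4 members, miR-99b-3p, miR-125a-3p, miR-99a-5p and miR-100-5p, could not be put in order, since the higher-placed of each neighbouring pair had more counts in 3 of 6 mice. The pairs were set by the same values that were tested, with both groups together, so these p values are descriptions only. Within a seed family a single member held most of the counts, since miR-99b-5p was 78.6% of the miR-99/100 5p counts and miR-125a-5p was 75.4% of the miR-125 5p counts over all mice.

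**Figure D1:**
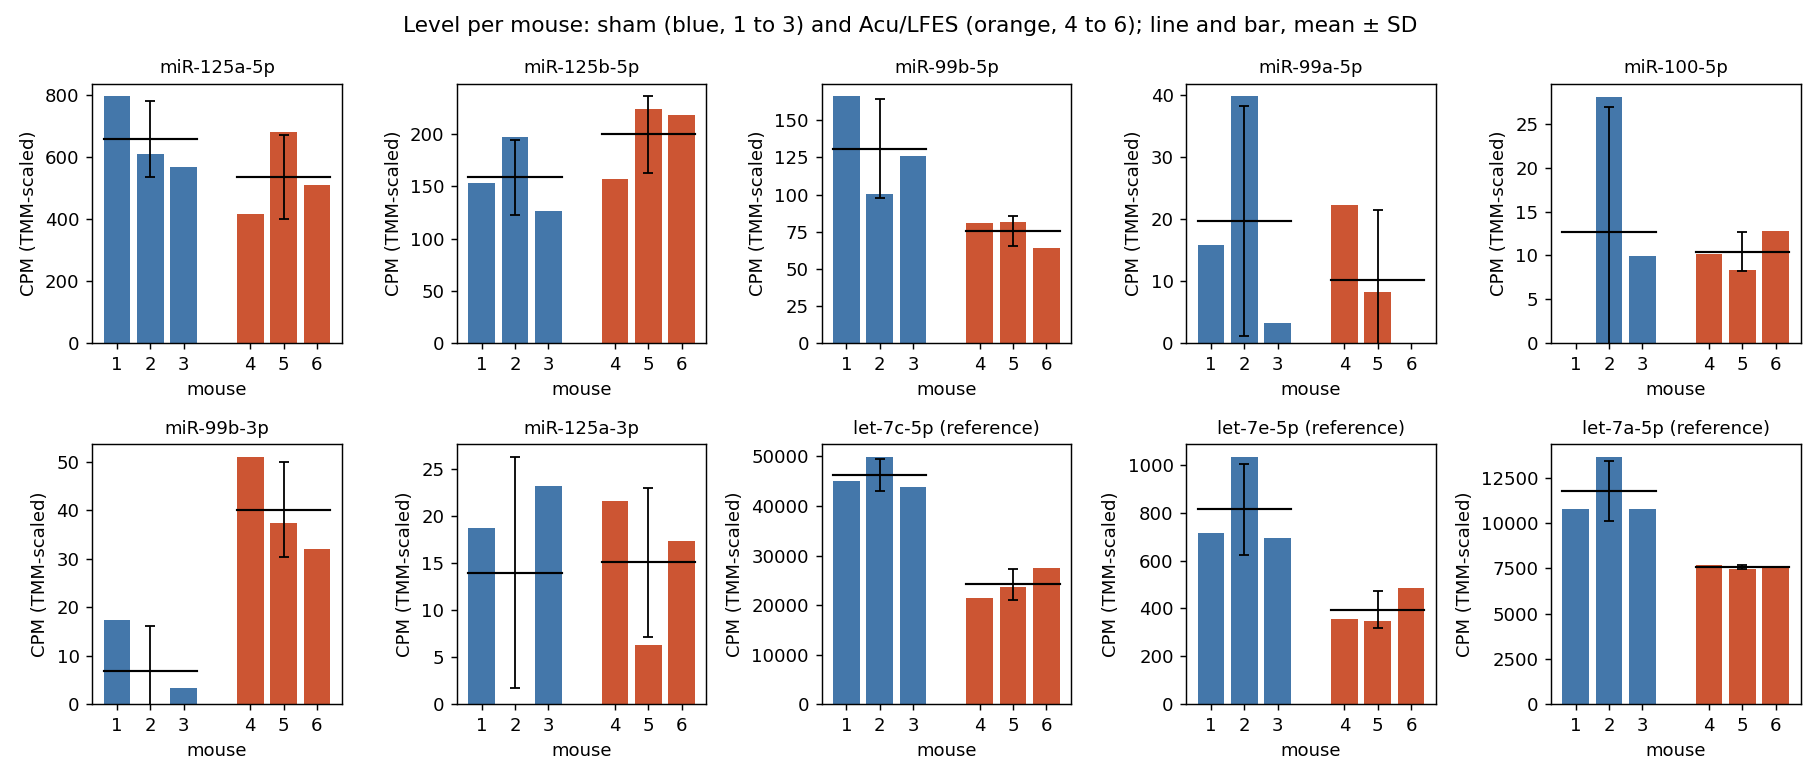
Level of the 7 members and, for reference, of the let-7 miRNAs of the clusters in each mouse, in CPM of the TMM-scaled library (each panel has its own axis from 0, so error bars that would pass below 0 end there). Bars are mice, and the line with its error bar is the group mean ± SD (n = 3). On this scale the 3 Acu/LFES mice lie below the 3 sham mice in miR-99b-5p and in the let-7 panels. They lie above them in miR-99b-3p, and the groups overlap in the other 5 members. As a part of total counts the groups overlap in miR-99b-5p too.

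To compare Acu/LFES with sham, edgeR's quasi-likelihood test was fitted over the whole table, and 259 miRNAs passed its default filter on low counts (at least 15.9 unscaled CPM in 3 libraries). Of the 7 members 6 were tested. miR-100-5p reached the filter in only 2 libraries. miR-99b-3p reached it in all 3 Acu/LFES mice but in 1 sham mouse. After Benjamini-Hochberg adjustment 0 members passed 0.05, as did 0% of all miRNAs tested, and at an unadjusted p under 0.05 the count was 0 members against 8.88% of all miRNAs tested. With the Wald test of DESeq2, 1 member, miR-99b-3p, had an unadjusted p under 0.05, against 11.2% of all miRNAs. After adjustment DESeq2 called 3.47% of all miRNAs and 0 of the 3 members that it gave an adjusted p. It gave none to miR-99b-3p, miR-99a-5p and miR-125a-3p, which therefore could not pass. Without a filter, edgeR's test gave 1 member, again miR-99b-3p, at an unadjusted p under 0.05, against 5.56% of 954 miRNAs, and with total counts as the scaling it gave the same member against 8.88%. The smallest adjusted p of a member was 0.566 in edgeR's test. The members did not move in a single direction, as 3 had a positive and 3 a negative log2 fold change (2 negative with total counts, 4 with scaling to miR-103-3p), with a median of -0.075 against 0.05 for all miRNAs tested. In TMM-scaled CPM the groups did not overlap in 2 of the 6 tested members, in opposite directions, against 17.0% of all miRNAs tested. miR-99b-3p passed the filter through the group where it was high, so these counts are descriptions only.

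In the miR-99/100 family, miR-99b-5p was counted 115, 43 and 38 times in sham mice 1, 2 and 3 and 135, 39 and 70 times in Acu/LFES mice 4, 5 and 6. This came to 166, 101 and 126 CPM in the sham group, against 81.0, 81.3 and 64.0 CPM in the Acu/LFES group. On this scale every Acu/LFES mouse was below every sham mouse, a pattern that 8.11% of all miRNAs tested showed in this direction. As a part of total counts the groups overlapped, since mouse 6 had 70 of 517421 counts and sham mouse 2 had 43 of 658833. The means were 131 ± 33.1 CPM and 75.4 ± 9.87 CPM (SD, n = 3 each), and the log2 fold change was -0.80 (standard error 0.49, 95% interval from -1.90 to 0.30, adjusted p = 0.685 in edgeR's quasi-likelihood test). The interval includes 0 and also a log2 fold change of -1. With total counts as the scaling the log2 fold change was -0.27 (standard error 0.77).

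The other family members were near the limit of detection. miR-99a-5p had 11, 17 and 1 counts in the sham group, against 37, 4 and 0 in the Acu/LFES group, or between 3.31 and 39.7 CPM against between 0 and 22.2 CPM. Its groups overlapped, and its log2 fold change of -0.92 had a standard error of 1.32. miR-100-5p had 0, 12 and 3 counts in the sham group, against 17, 4 and 14 in the Acu/LFES group. In CPM the sham mice, at 0, 28.1 and 9.93, spanned the Acu/LFES mice, at 10.2, 8.33 and 12.8. Mouse 6 had no count of miR-99a-5p but 14 of miR-100-5p, and mouse 1 had no count of miR-100-5p but 11 of miR-99a-5p, a pair of strands that differ at a single base. Because such reads can be shared, the 3 rows were also added. The sum was 182, 168 and 139 CPM in the sham group, against 113, 97.9 and 76.8 CPM in the Acu/LFES group, again without overlap, and its log2 fold change was -0.78 (standard error 0.44, 95% interval from -1.75 to 0.20, adjusted p = 0.615 in edgeR's test with the rows replaced by their sum). miR-99b-5p made most of this sum, so it is not a second observation. As a part of total counts the sum overlapped too, with 84 of 517421 in mouse 6 and 72 of 658833 in sham mouse 2. With total counts as the scaling its log2 fold change was -0.21 (standard error 0.71).

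In the miR-125 family the levels of the groups overlapped. miR-125a-5p was at 796, 610 and 566 CPM in the sham group, against 416, 681 and 509 CPM in the Acu/LFES group, where mouse 5 lay above sham mice 2 and 3. Its log2 fold change was -0.30 (standard error 0.28, 95% interval from -0.93 to 0.33, adjusted p = 0.799 in edgeR's test) and turned to 0.26 with total counts as the scaling. miR-125b-5p was at 153, 196 and 126 CPM in the sham group, against 157, 223 and 218 CPM in the Acu/LFES group, where mice 5 and 6 were the highest of all. Its log2 fold change was 0.33 (standard error 0.39, 95% interval from -0.54 to 1.19, adjusted p = 0.815 in edgeR's test). For the sum of both rows it was -0.17 (standard error 0.26, adjusted p = 0.889 in edgeR's test), and 0.44 with total counts. With TMM factors the interval of miR-125a-5p leaves out a log2 fold change of -1 or 1, whereas that of miR-125b-5p includes 1. The standard error of miR-125a-5p was 0.57 with total counts and 0.51 with scaling to miR-103-3p, so its interval is wider there.

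**Figure D2:**
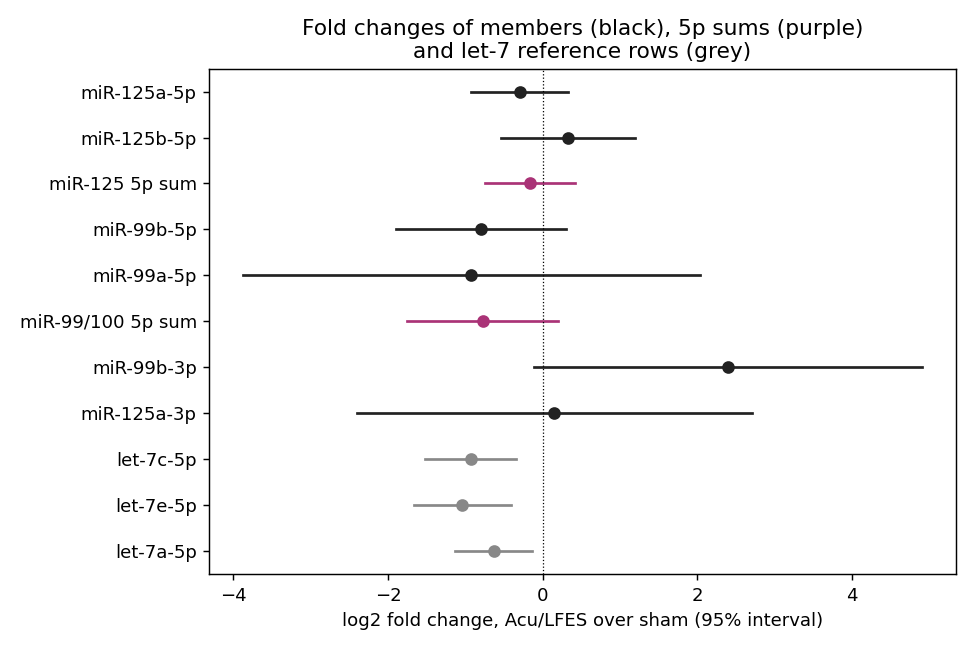
Log2 fold change of Acu/LFES over sham from edgeR's quasi-likelihood test, with 95% intervals, for the 6 tested members, the 2 family sums and the let-7 reference rows (3 mice in each group). The intervals of all members and sums cross 0, and those of miR-99a-5p, miR-99b-3p and miR-125a-3p are the widest.

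The members were then set against the let-7 miRNA of their own cluster in the same library, which needs no scaling. These let-7 miRNAs serve as reference only. In the same edgeR fit the log2 fold change was -0.93 for let-7c-5p, -1.04 for let-7e-5p and -0.63 for let-7a-5p (adjusted p = 0.269, 0.269 and 0.433). In all, 10 ratios of rows within a library were compared. The test was a two-sided exact permutation test, whose smallest p is 0.1 with 3 mice in each group, and p was adjusted over the 10 ratios.

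miR-125b-5p was low beside let-7c-5p, with 0.340, 0.393 and 0.288 counts per 100 counts of let-7c-5p in sham mice 1, 2 and 3 and 0.734, 0.940 and 0.792 in Acu/LFES mice 4, 5 and 6. The groups did not overlap, and the mean log2 ratio was -8.20 ± 0.22 in sham and -6.93 ± 0.19 with Acu/LFES (SD, n = 3 each), a difference of 1.27 or 2.41-fold (exact permutation test, p = 0.1, adjusted p = 0.25). Against let-7a-5p the ratio was 1.42, 1.44 and 1.17 per 100 counts in the sham group, against 2.05, 2.99 and 2.87 in the Acu/LFES group, also without overlap and with a log2 difference of 0.95 (exact permutation test, p = 0.1, adjusted p = 0.25). The same separation was common among other miRNAs. Of all miRNAs tested, 45.3% had a higher ratio to let-7c-5p in every Acu/LFES mouse than in every sham mouse, and 32.2% had a higher ratio to let-7a-5p. The CPM of both let-7 rows was lower in every Acu/LFES mouse than in every sham mouse, and that difference enters each such ratio.

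The chromosome 17 members lay closer to their mate. miR-99b-5p had between 9.73 and 23.3 counts per 100 counts of let-7e-5p in the sham mice and between 13.2 and 23.5 in the Acu/LFES mice, with a log2 difference of 0.26 and overlapping groups (exact permutation test, p = 0.6). miR-125a-5p had 1.12, 0.590 and 0.814 times the counts of let-7e-5p in the sham mice and 1.17, 1.97 and 1.05 times in the Acu/LFES mice. Only sham mouse 1, which lay above Acu/LFES mouse 6, broke the separation (log2 difference 0.72, exact permutation test, p = 0.2, adjusted p = 0.4), where 46.5% of all miRNAs tested had ratios to let-7e-5p that were higher without overlap. The ratios of miR-99a-5p to let-7c-5p and of miR-100-5p to let-7a-5p rested on between 0 and 37 counts and overlapped widely (exact permutation tests, p = 0.9 and 0.6).

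The balance of the members within the miR-125 family was compared in the same way. miR-125a-5p had 5.20, 3.11 and 4.50 times the counts of miR-125b-5p in sham mice 1, 2 and 3 and 2.65, 3.06 and 2.34 times in Acu/LFES mice 4, 5 and 6. All Acu/LFES mice were below all sham mice, though sham mouse 2 and Acu/LFES mouse 5 were nearly equal. The log2 ratio was 2.05 ± 0.38 in sham and 1.41 ± 0.19 with Acu/LFES (SD, n = 3 each), a difference of -0.64 (exact permutation test, p = 0.1, adjusted p = 0.25), and 12.8% of all miRNAs tested had a ratio to miR-125b-5p that was lower without overlap. The ratio of miR-99b-5p to the sum of miR-99a-5p and miR-100-5p was between 1.48 and 10.5 in the sham mice and between 2.50 and 5.00 in the Acu/LFES mice, with overlap (exact permutation test, p = 0.6).

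**Figure D3:**
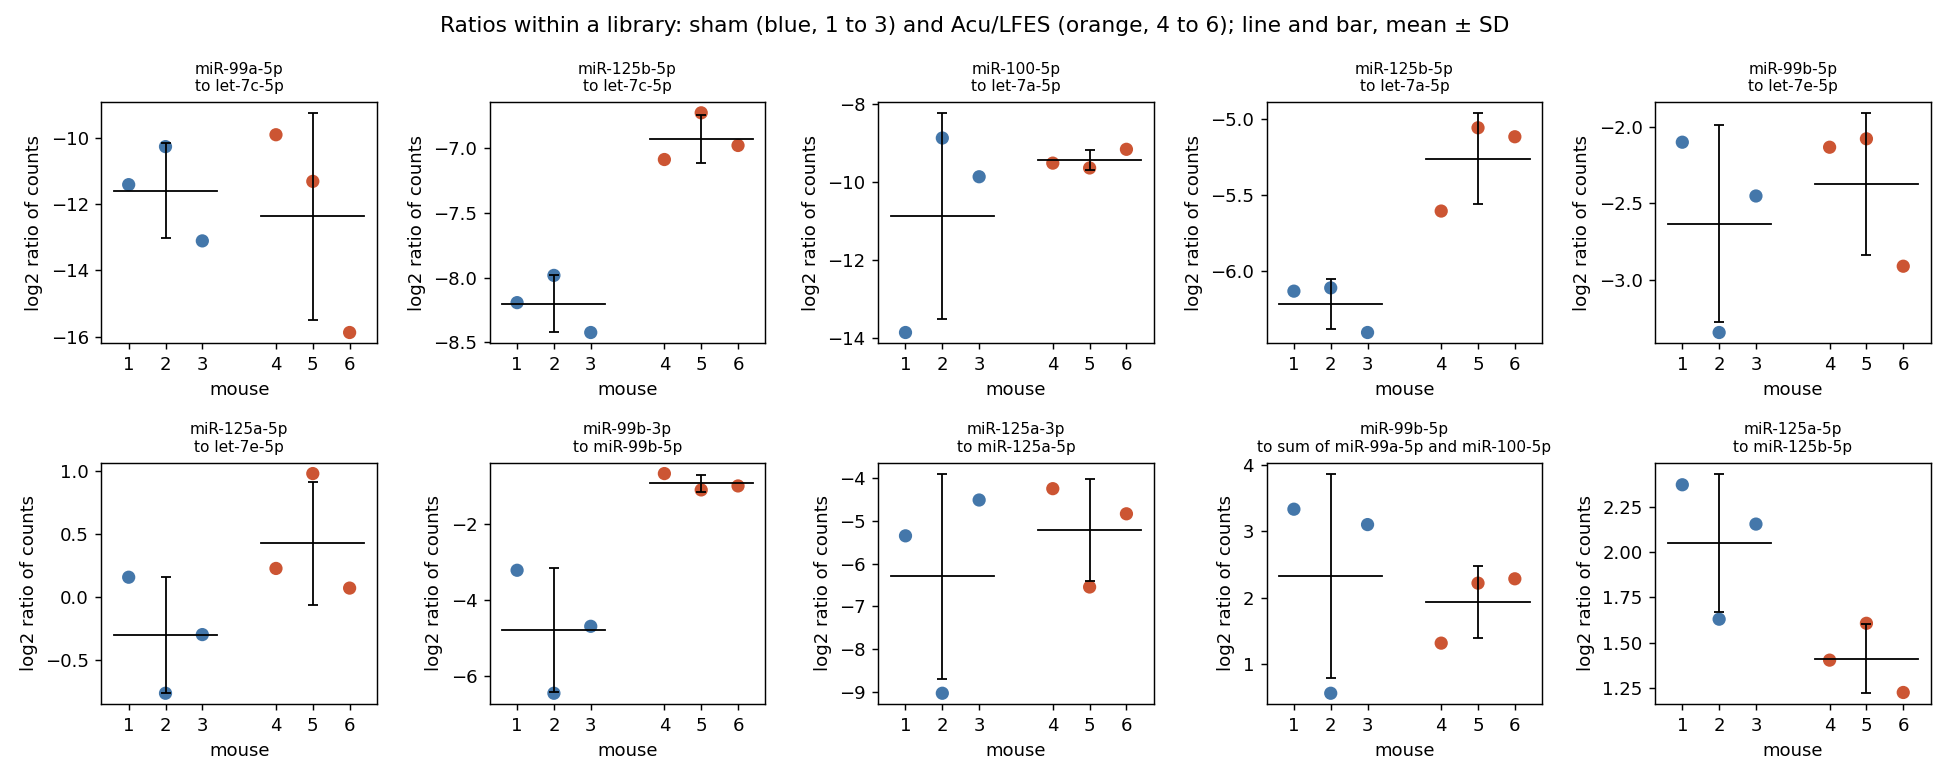
Log2 ratios of counts within each library (0.5 added to each count) for the 10 pairs compared, each panel with its own axis. Points are mice, and the line with its error bar is the group mean ± SD (n = 3). The groups do not overlap in the panels of miR-125b-5p to let-7c-5p and to let-7a-5p, of miR-99b-3p to miR-99b-5p and of miR-125a-5p to miR-125b-5p.

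The 3p strand of miR-99b had the largest log2 fold change of the tested members. miR-99b-3p had 12, 0 and 1 counts in sham mice 1, 2 and 3 and 85, 18 and 35 in Acu/LFES mice 4, 5 and 6. This was 17.3, 0 and 3.31 CPM in the sham group, against 51.0, 37.5 and 32.0 CPM in the Acu/LFES group. Every Acu/LFES mouse was above every sham mouse, as in 8.88% of all miRNAs tested in this direction. The log2 fold change was 2.39 (standard error 1.12, 95% interval from -0.11 to 4.90, unadjusted p = 0.0590, adjusted p = 0.566 in edgeR's quasi-likelihood test). The size rested on sham mouse 1, without which it was 4.68 (standard error 1.38, unadjusted p = 0.00966, adjusted p = 0.220 in the same test). In that fit, 15.8% of all 303 miRNAs tested had an unadjusted p under 0.05.

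The 5p and 3p strands of miR-99b are cut from the same hairpin, and their levels differed in opposite directions. Of the counts on this hairpin, 9.45%, 0% and 2.56% were on the 3p strand in the sham group, against 38.6%, 31.6% and 33.3% in the Acu/LFES group. The 43 counts of mouse 2, with 0 on the 3p strand, allow a share of up to 6.98%. The mean share was 4.00 ± 4.89% in sham and 34.5 ± 3.67% with Acu/LFES (SD, n = 3 each), and the log2 ratio of the strands differed by 3.86 (exact permutation test, p = 0.1, adjusted p = 0.25). Ratios to miR-99b-5p were higher without overlap for 30.6% of all miRNAs tested. For a background of the same kind, chosen after the values were seen, 46 hairpins had both strands tested, and in 8.70% of them the ratio of the less to the more counted strand was higher in every Acu/LFES mouse. miR-99b had the second largest difference of the 46, behind only let-7e, its neighbour on the transcript. The median difference over these hairpins was 0.30. These ranks are descriptions only, since miR-99b-3p and the 3p strand of let-7e passed the filter through the Acu/LFES mice. The count of miR-99b-3p was 0 in sham mouse 2, and that of the 3p strand of let-7e was 0 in sham mice 2 and 3. The size of both differences therefore depends on the pseudocount, and with a pseudocount of 1 that of miR-99b was 3.40. On let-7e, singled out by its rank, 4.26%, 0% and 0% of counts were on the 3p strand in the sham group, against 10.4%, 7.26% and 5.86% in the Acu/LFES group (log2 difference 4.09). Since let-7e was picked for this difference, no test of it is given. The level of let-7e-3p itself overlapped between the groups, at 31.8, 0 and 0 CPM in sham mice 1, 2 and 3 and 41.4, 27.1 and 30.2 CPM in Acu/LFES mice 4, 5 and 6.

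On the third hairpin of that transcript the groups overlapped. miR-125a-3p had 13, 0 and 7 counts in the sham group, against 36, 3 and 19 in the Acu/LFES group, or 18.8, 0 and 23.2 CPM against 21.6, 6.25 and 17.4 CPM. Its log2 fold change was 0.15 (standard error 1.15, 95% interval from -2.41 to 2.71, adjusted p = 0.974 in edgeR's test) and -0.14 with scaling to miR-103-3p. Its ratio to miR-125a-5p overlapped between the groups (exact permutation test, p = 0.6).

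Sham mouse 2 had 0 counts on the 3p strand of every miR-99/100 and miR-125 hairpin. Over these 6 hairpins, 82, 0 and 14 counts were on the 3p and 783, 417 and 251 on the 5p strand in sham mice 1, 2 and 3, against 187, 46 and 158 on the 3p and 1145, 481 and 879 on the 5p strand in Acu/LFES mice 4, 5 and 6. The 3p share was 9.48%, 0% and 5.28% in the sham group, against 14.0%, 8.73% and 15.2% in the Acu/LFES group, and mouse 5 lay below mouse 1 (exact permutation test, p = 0.2). The 0 of mouse 2 allows a share of up to 0.719%. Over the 46 hairpins with both strands tested, the median share on the less counted strand was 7.10%, 3.31% and 5.20% in the sham group, against 13.0%, 5.49% and 12.1% in the Acu/LFES group, and that strand was at 0 in 10 hairpins in mouse 2 and in 0 hairpins in mice 4 and 6. The part of this difference between libraries in the result for miR-99b was not tested.

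**Figure D4:**
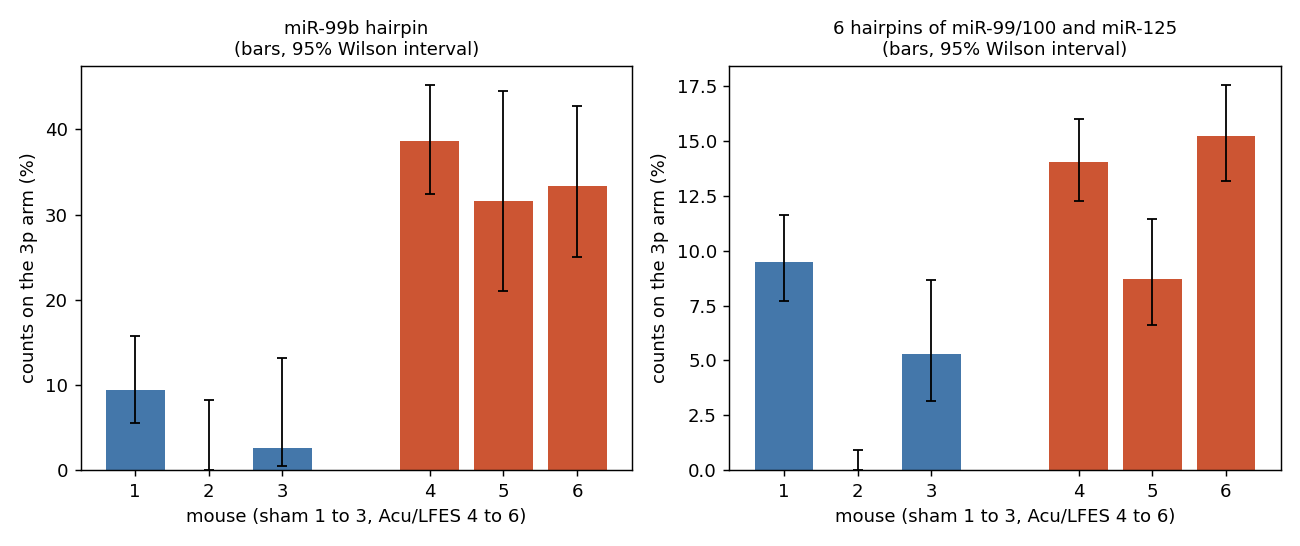
Percent of counts on the 3p strand in each mouse, for the miR-99b hairpin (left) and for all 6 miR-99/100 and miR-125 hairpins (right), with 95% Wilson intervals that cover counting error only. For miR-99b the Acu/LFES mice lie between 31.6% and 38.6% and the sham mice at or below 9.45%, while for the 6 hairpins mouse 5 lies within the sham range.

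Of the 8 other rows followed, which are the remaining strands of these clusters and miR-351-5p, 3 were tested and 0 had an unadjusted p under 0.05 in edgeR's test. The log2 fold change was 1.49 for let-7e-3p (standard error 1.30), 0.27 for miR-125b-1-3p (standard error 1.16) and -0.58 for miR-351-5p (standard error 0.61). miR-351-5p is an X-linked miRNA with the miR-125 seed, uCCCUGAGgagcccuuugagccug, and it was at 230, 376 and 92.7 CPM in the sham group, against 115, 281 and 76.8 CPM in the Acu/LFES group, above miR-125b-5p and below miR-125a-5p in 3 of the 6 mice and below both in the other 3. miR-99a-3p, which has the seed of miR-99b-3p, had 0 counts in every sham mouse and 18, 4 and 17 in the Acu/LFES mice. With counts pooled over each group it was at least 5.70-fold higher with Acu/LFES, against a floor of 3 counts in the 3 sham libraries together. This bound leaves out the spread between mice. The row did not pass the filter on low counts. Without a filter its log2 fold change was 6.20 (standard error 3.03, 95% interval from 0.26 to 12.1, unadjusted p = 0.0408, adjusted p = 0.577 in edgeR's test). In that fit 5.56% of 954 miRNAs had an unadjusted p under 0.05. With 0 counts in every sham mouse, the size of this fold change is poorly determined. miR-100-3p had 0 counts in all 6 mice.

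To see which other miRNAs varied alike over the 6 mice, mean-centred log2 CPM was compared for 237 tested miRNAs. The nearest to the miR-99/100 5p sum were miR-30c-5p, miR-200c-3p and miR-126a-5p, with root mean square differences of 0.19, 0.21 and 0.26 on the log2 scale, where the sum itself varied by 0.44. Their log2 fold changes were -0.57, -0.68 and -0.41. The let-7 mates were left out of this ranking, and let-7a-5p differed from the sum by 0.22, let-7c-5p by 0.30 and let-7e-5p by 0.38. The nearest to the miR-125 5p sum were miR-92b-3p, miR-192-5p and miR-324-3p, each at 0.15, where the sum varied by 0.25, and let-7a-5p, let-7c-5p and let-7e-5p differed from it by 0.35, 0.44 and 0.55. Any miRNA that varied little would lie near the miR-125 sum.

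Marker miRNAs of possible source cells were read beside these values. Of the 7 red-cell, 5 platelet and white-cell, 4 hepatocyte, 5 skeletal muscle and 5 mesenchymal markers, all were in the table and 5, 5, 3, 3 and 5 were tested. At an unadjusted p under 0.05 in edgeR's test 1 was higher, miR-143-3p of mesenchymal cells with a log2 fold change of 1.03, and 0 were lower. Of all miRNAs tested, 8.88% reached that threshold in either direction. Benjamini-Hochberg adjustment brought the p of miR-143-3p in edgeR's test to 0.269, so it did not pass 0.05. The summed mesenchymal markers ranged from 1626 to 3259 CPM among sham and from 2834 to 5005 CPM among Acu/LFES mice. For skeletal muscle markers the sums were 10115 to 11285 CPM and 7499 to 12478 CPM, for hepatocyte markers 10307 to 23679 CPM and 4072 to 17991 CPM, and for platelet and white-cell markers 6865 to 7534 CPM and 5137 to 7118 CPM. Red-cell markers had sums of 565243 to 1148920 CPM and 147313 to 974325 CPM, the lowest in Acu/LFES mouse 6, and the miR-486 rows made most of each sum. None of the other tested red-cell markers was lowest in mouse 6. There miR-451a was at 943 CPM, miR-144-5p at 189 CPM and miR-16-5p at 8210 CPM, against 692, 107 and 7219 CPM in sham mouse 1. Their log2 fold changes were 0.34, 0.54 and 0.15, against -0.66 for both miR-486 rows. Skeletal muscle markers had negative log2 fold changes in 3 of 3 tested rows, with a median of -0.04. Red-cell, platelet and white-cell, and hepatocyte markers had medians of 0.15, -0.39 and -0.16. Mesenchymal markers had a median of 0.11, with 3 positive and 2 negative rows. The defining red-cell miRNA miR-451a was present in every mouse, between 692 and 1907 CPM, and so was miR-144-5p, between 107 and 456 CPM. miR-144-3p and miR-363-3p were at or near 0 in every mouse of both groups, with at most 1.80 and 0.914 CPM. The part of the cells of origin in the levels of the members was not tested.

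The scaling of the libraries set the level of every member together. With total counts in place of TMM factors, the median over all miRNAs tested was 0.71, and relative to it miR-99b-5p at -0.27 and miR-125a-5p at 0.26 remained on the lower side and miR-125b-5p at 1.02 and miR-99b-3p at 2.75 on the higher side. miR-99b-5p and miR-99a-5p were negative, and miR-125b-5p and miR-99b-3p positive, under every scaling run.

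**Figure D5:**
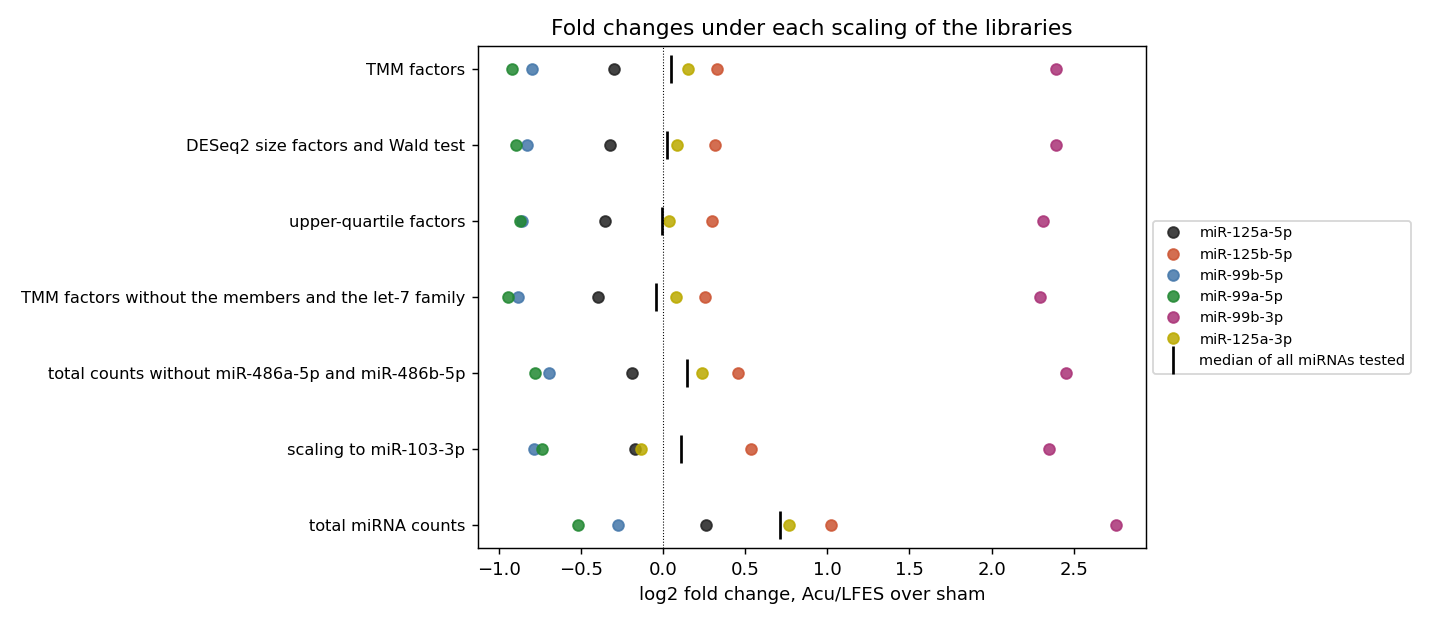
Log2 fold change of the 6 tested members (points) and the median of all miRNAs tested (vertical ticks) under TMM factors and 6 other scalings of the libraries. The members keep nearly the same order throughout, and with total counts all points shift to the right together with the median, which moves from 0.05 to 0.71.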

How the data were processed

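The libraries were small RNA libraries from serum exosomes, 3 from sham and 3 from Acu/LFES mice. The values deposited by the authors are raw counts of reads, with a row for each mature miRNA and a column for each mouse. Their processing notes name bcl2fastq 1, cutadapt 1.6 and DESeq2 1.26.0. The aligner, the counter, the mismatches allowed and the miRNA annotation are not given in the sources used here, and they decide how reads of near-identical strands were shared. Library totals ranged from 391708 to 1504137 counts, which limits members with few counts. The table also has 67 rows of viral and plant miRNAs, kept in the totals.

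Low rows were dropped by filterByExpr of edgeR 4.0.16 (R 4.3.3) and libraries scaled by TMM. Groups were compared by the quasi-likelihood test over the whole table, with Benjamini-Hochberg adjustment at 0.05. Standard errors were taken from the F statistic. Ratios used a pseudocount of 0.5 and exact permutation tests. The fit was tested on simulated data. Alternatives were DESeq2 1.42.0, 5 other scalings, 2 other filters, identical rows collapsed and each mouse left out.

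Members, lists and tests were chosen with earlier results of these data known. The miRNAs named are the members, their let-7 mates, the other strands of the clusters, miR-351-5p, the 3 miRNAs nearest to each family sum, and marker lists. The comparison of strands over 46 hairpins was chosen after its values were seen, and miR-143-3p, miR-451a, miR-16-5p, miR-144-3p, miR-144-5p and miR-363-3p were singled out after theirs. Positions and sequences are from RefSeq, and host genes from GENCODE M21, on GRCm38. Figures were drawn with matplotlib 3.10.9.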

Additional observations from a re-analysis of the deposited data

How the results depend on the processing

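No paired analysis was possible because the mice carry the numbers 1 to 6, which the groups do not share. No member had an adjusted p under 0.05 in any setting run, though DESeq2 gave none to 3 of the 6 tested. The members with an unadjusted p under 0.05 numbered 1, miR-99b-3p, instead of 0 with DESeq2, with total counts, with no filter and without sham mouse 1, against 11.2%, 8.88%, 5.56% and 15.8% of all miRNAs tested there, and it went from 0 to 1 over the fits that each left out a mouse. With total counts, the log2 fold change turned to 0.26 for miR-125a-5p and to 0.44 for the miR-125 5p sum, as did the median of all miRNAs to 0.71. With scaling to miR-103-3p it turned to -0.14 for miR-125a-3p. The share of counts differed by 0.0284 percentage points (Acu/LFES minus sham) and by -0.0116 without miR-486a-5p and miR-486b-5p in the total.

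Over the fits without 1 mouse, log2 fold changes ran from -0.96 to -0.56 for miR-99b-5p, from -0.91 to -0.59 for the miR-99/100 5p sum, from -0.47 to -0.11 for miR-125a-5p, from 0.23 to 0.50 for miR-125b-5p, from 1.85 to 4.68 for miR-99b-3p, from -0.30 to -0.0056 for the miR-125 5p sum, from -2.26 to 0.048 for miR-99a-5p and from -0.43 to 0.64 for miR-125a-3p. Log2 ratio differences went from 1.16 to 1.38 for miR-125b-5p to let-7c-5p, from 0.85 to 1.13 to let-7a-5p, from 0.45 (without Acu/LFES mouse 5) to 0.95 for miR-125a-5p to let-7e-5p, from 3.03 to 4.65 for the strands of miR-99b and from -0.85 to -0.48 for miR-125a-5p to miR-125b-5p. Others passed through 0, from -2.003 to 0.99 for miR-99a-5p to let-7c-5p, from -0.071 to 2.43 for miR-100-5p to let-7a-5p, from -0.098 to 0.53 for miR-99b-5p to let-7e-5p, from -0.28 to 1.98 for the strands of miR-125a and from -1.28 to 0.11 for miR-99b-5p to miR-99a-5p plus miR-100-5p. The share went from -0.0044 to 0.050 percentage points. A pseudocount of 1 in place of 0.5 left every ratio's direction as it was. The cause of these changes was not tested.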

Other observations

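The 3p strands of miR-125b tell its genes apart, since miR-125b-1-3p comes from chromosome 9 and miR-125b-2-3p from chromosome 16. Over all mice 148 counts were on miR-125b-1-3p and 71 on miR-125b-2-3p, so that 67.6% were of the chromosome 9 gene. The share was 71.9% in sham mouse 1 and 72.9%, 66.7% and 59.8% in Acu/LFES mice 4, 5 and 6. Sham mouse 3 had 6 and 0 counts and sham mouse 2 had none of either, although it had 84 counts of miR-125b-5p. These strands can be kept to a different degree, so the share is of the strands and not of the genes' output.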
